A study of Cucurbita pepo with 18 samples.

Results

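Seed coats of hull-less and hulled *Cucurbita pepo* pumpkins both changed between 5 and 10 days after pollination (DAP), and the genes for which that change differed between the accessions are described here. The difference is (hull-less at 10 DAP minus hull-less at 5 DAP) minus (hulled at 10 DAP minus hulled at 5 DAP), on the log2 scale. A positive value means that a gene moved further upward, or less far downward, in the hull-less coat. It used the 12 libraries of 5 and 10 DAP, out of 18 in the series, and 23382 of 29484 features had enough counts to be tested. The 4 groups were untreated seed coats of hull-less pumpkins (HL) at 10 DAP, HL at 5 DAP, hulled pumpkins (H) at 10 DAP, and H at 5 DAP, with 3 biological replicates each. Per the study, HL plants carry a recessive insertion in *CpNST1*, and each genotype was represented by a single accession, so the effect of this locus cannot be told apart from that of the rest of the genome. Each library was total RNA of whole seed coats, in which fewer cells of a type and less RNA per cell cannot be told apart.

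The hard hull of a pumpkin seed consists of seed coat cells with thick secondary cell walls (SCWs), made of cellulose, xylan, and lignin. In *Arabidopsis*, NAC factors of the NST group switch on MYB46 and other MYB factors, and these in turn switch on the cellulose synthases CesA4, CesA7, and CesA8, the xylan synthases, and the enzymes that make monolignols, the units of lignin. Young seed coats are also green in many species and hold chloroplasts, and their cells divide and expand before walls thicken.

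The total count per library ranged from 16454156 to 18443048. The TMM factors that further scaled each library were 0.732 to 0.807 in HL at 10 DAP and 1.19 to 1.22 in HL at 5 DAP. H at 10 DAP had 1.06 in replicate 1 and 0.790 and 0.835 in the others, and H at 5 DAP had 1.20 to 1.25. Pearson correlations of log2 CPM, the counts of a gene scaled to the depth of its library, within a group ranged from 0.960 to 0.986, apart from H at 10 DAP, where replicate 1 had an r of 0.878 with replicate 2 and 0.916 with replicate 3. Summed over the marker genes of embryo and endosperm, HL at 10 DAP had 1015 to 1309 CPM and HL at 5 DAP 368 to 419 CPM. H at 10 DAP had 491 CPM in replicate 1 and 879 and 1030 CPM in the others, and H at 5 DAP had 327 to 332 CPM. Marker genes of ovules and integuments, the tissue that becomes the seed coat, were present in every library, with summed values of 1875 to 2064 CPM in HL at 10 DAP, 1740 to 1838 CPM in HL at 5 DAP, 1506 to 1758 CPM in H at 10 DAP, and 2331 to 2438 CPM in H at 5 DAP. The part of embryo tissue or of H replicate 1 at 10 DAP in the results was not tested beyond the values given with and without that library.

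The change from 5 to 10 DAP was large in both accessions and mostly shared. A gene was called when its adjusted p was 0.05 or less and its log2 fold change was 1 or more in size (edgeR quasi-likelihood test). In HL 3730 genes rose and 4800 fell, 36.5% of those tested. In H 3811 rose and 4039 fell, 33.6% of those tested. Among them 5393 changed in the same direction in both accessions and 94 in opposite directions. Across the 23382 genes tested, the change in HL and the change in H had a Pearson r of 0.784 and a Spearman rho of 0.766, given as a description, since genes are not independent replicates. The accession difference in this change passed the same thresholds for 1585 genes, 6.78% of those tested. Of these, 764 genes (3.27%) were higher, meaning that the HL change lay above the H change, and 821 genes (3.51%) were lower. The median over all genes tested was -0.09.

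**Figure D1:**
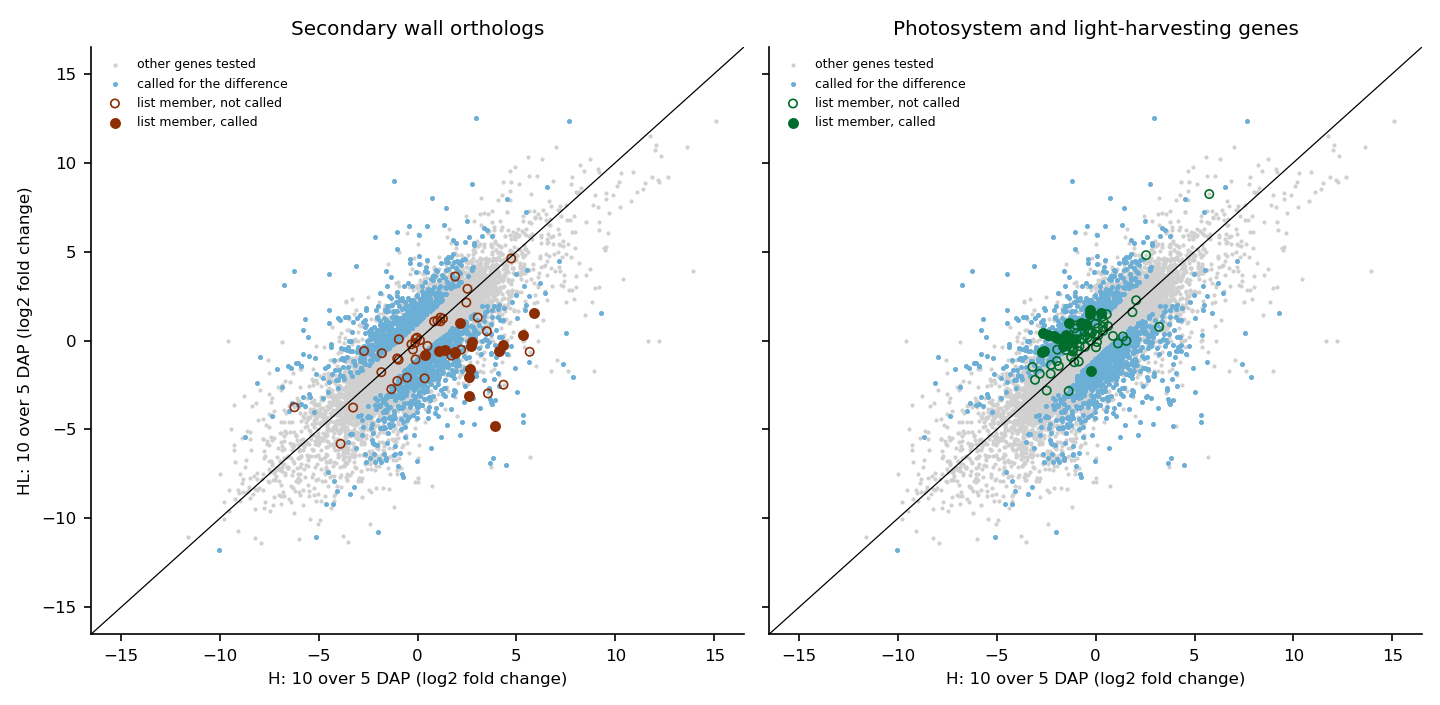
Log2 fold change of 10 over 5 DAP in H (x axis) and in HL (y axis), 1 point per gene tested, with the line of equal change drawn in black. Blue points are the 1585 genes called for the difference. Filled dark points are the called members of each list, 16 secondary wall orthologs that lie below the line (left) and 18 photosystem and light-harvesting genes, of which 17 lie above it (right).

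The genes called were sorted by where the accessions differed at the same thresholds. In 908 genes the accessions differed at 10 DAP and not at 5 DAP, so the gap opened, and in 228 genes they differed at 5 DAP and not at 10 DAP, so the gap closed. Another 70 genes crossed over, with differences of opposite sign at the 2 stages, 64 differed with the same sign at both, and 315 passed at neither. Of the 764 higher genes 405 opened and 121 closed, and of the 821 lower genes 503 opened and 107 closed. Genes with an opening gap had a median absolute difference between accessions of 1.87 at 10 DAP and 0.36 at 5 DAP, and those with a closing gap 0.45 at 10 DAP and 1.75 at 5 DAP. These medians largely follow from how the classes were defined. In 75.6% of the 1585 genes the absolute difference was larger at 10 DAP than at 5 DAP. Over all genes tested the median absolute difference was 0.48 at 10 DAP and 0.31 at 5 DAP. A wider gap at 10 DAP was therefore not particular to the called genes. The number of genes called between accessions depended on the fit. In the fit of 12 libraries, 1660 genes were higher in HL (7.1% of those tested) and 2305 lower (9.86%) at 10 DAP, while 869 were higher (3.72%) and 1054 lower (4.51%) at 5 DAP. The totals were 3965 (17.0%) at 10 DAP and 1923 (8.22%) at 5 DAP. They were 2318 at 10 DAP and 2702 at 5 DAP when the 6 libraries of each stage were fitted alone, which left 697 genes opening and 294 closing. Without H replicate 1 of 10 DAP, 1442 genes opened and 381 closed.

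A higher call arose in several ways. In 250 of the 764 higher genes only HL rose, in 227 only H fell, in 37 HL rose while H fell, in 76 both rose, in 65 both fell, and in 109 neither change passed. Among the 821 lower genes, only HL fell in 315, only H rose in 217, HL fell while H rose in 57, both fell in 101, both rose in 33, and neither change passed in 98.

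The number of calls rested strongly on single libraries. It ranged from 936 without H replicate 3 of 5 DAP to 2648 without H replicate 1 of 10 DAP, and it was 948 without HL replicate 2 and 1004 without HL replicate 3 of 5 DAP. Of the 1585 genes, 776 were called in the same direction whichever library was left out, 400 of them higher and 376 lower. These counts are drawn in the plot of calls by library left out.

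**Figure D2:**
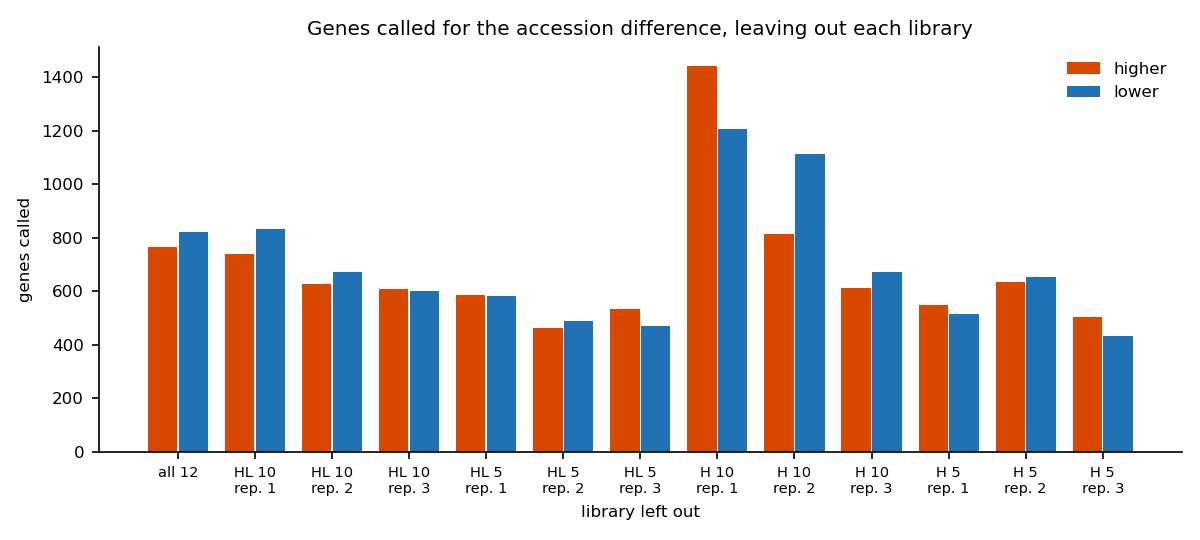
Number of genes called higher (orange) and lower (blue) for the accession difference with all 12 libraries and without any 1 of them. The count of higher genes is 1441 without H replicate 1 of 10 DAP and 764 with all 12 libraries, and the count of lower genes is 433 without H replicate 3 of 5 DAP and 821 with all 12.

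The SCW orthologs were mostly lower where they were called. The list holds 68 genes that the study matched to SCW genes of *Arabidopsis*, of which 54 were tested and 14 had too few counts. Of the 54, 16 were lower and 0 higher, 29.6% lower against 3.51% of all genes tested, and at an unadjusted p under 0.05 there were 22 lower and 2 higher, against 14.7% lower and 11.7% higher over all genes. DESeq2 called 20 lower and 1 higher, against 5.42% and 4.99% over all genes. In 15 of the 16 the gap opened at 10 DAP, against 503 of all 821 lower genes. In the same 15 every HL library of 10 DAP lay below every H library of 10 DAP. Of all genes tested, called or not, 20.7% showed this order. The 15 were picked by calls from these same libraries, so the order largely follows from the choice and is no further evidence. The median difference over the 54 members was -1.22, or -0.20 with the 10 members at or under 3 counts in every library of a group set to their bound, or to 0 where they have none. Without H replicate 1 of 10 DAP the median was -0.77, and without any other library it lay between -1.41 and -0.87. The list's median change from 5 to 10 DAP was -0.55 in HL and 1.16 in H. The study itself describes this list in the same samples, so its direction here is no independent evidence. The lower count was 7 without HL replicate 2 or without H replicate 3 of 5 DAP, 8 without HL replicate 3 or H replicate 1 of 5 DAP, and 11 to 21 without any other library. Among the 16 genes H replicate 1 was the highest H library of 10 DAP in 13, and H replicate 2 the lowest in 14.

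At the top of this pathway no difference in the change was called. *CpNST1* (Cp4.1LG12g04350, LG12:3411999-3413380 of the Cp4.1 zucchini genome), the NAC factor that carries the insertion in HL, had 14.4, 13.4, and 25.8 CPM in HL at 10 DAP and 0.153, 0.482, and 1.51 CPM in HL at 5 DAP. H had 58.8, 4.19, and 30.7 CPM at 10 DAP and 0.286, 2.69, and 0.516 CPM at 5 DAP. It rose strongly in both accessions, by 4.61 in HL and 4.73 in H, and the libraries of HL and H overlapped at each stage. The difference was -0.12 ± 1.5 on the log2 scale (SE), adjusted p = 0.98, and its sign changed when libraries were left out. NST2 (Cp4.1LG05g07660) had 0.647 to 1.61 CPM in HL at 10 DAP and 0.0457 to 0.306 CPM in HL at 5 DAP. H had 0.481 to 4.49 CPM at 10 DAP and 0.429 to 0.610 CPM at 5 DAP, and the difference was 0.38 ± 1.09 on the log2 scale (SE), adjusted p = 0.872. SND1/NST3 (Cp4.1LG00g00720) was too low to be tested, with 0 counts in all HL libraries of both stages and 2.78, 0.343, and 1.73 CPM in H at 10 DAP.

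MYB46 and MYB58, which act below them, were near 0 in HL. MYB46 (Cp4.1LG16g08960), the direct target of NST factors in *Arabidopsis*, had 0 counts in every HL library of 10 DAP and at most 0.051 CPM in HL at 5 DAP, against 11.1, 0.618, and 3.80 CPM in H at 10 DAP and 0.0477, 0.511, and 0.188 CPM in H at 5 DAP. MYB58 (Cp4.1LG16g07120), an activator of lignin genes, had at most 0.0744 CPM in any HL library of either stage, against 8.51, 1.17, and 3.52 CPM in H at 10 DAP and 0.0954, 0.975, and 0.516 CPM in H at 5 DAP. With HL at the detection floor at both stages neither change could be measured in HL, and the tests of the difference gave an adjusted p of 0.293 for MYB46 and 0.804 for MYB58. A MYB gene that groups with MYB103, MYB20, and MYB85 (Cp4.1LG18g08610) had 2.98, 1.72, and 4.74 CPM in HL at 10 DAP and 1.38, 1.30, and 0.594 CPM in HL at 5 DAP. H had 12.6, 36.2, and 35.4 CPM at 10 DAP and 0.525, 0.232, and 0.657 CPM at 5 DAP. It rose in both accessions, by 1.53 in HL and 5.87 in H, with no overlap of the accessions at 10 DAP. The difference was -4.35 ± 0.79 on the log2 scale (SE), adjusted p = 0.00893.

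The cellulose synthases of secondary walls were lower. CesA4 (Cp4.1LG12g10230, LG12:9650072-9654816) had 20.4, 20.8, and 16.7 CPM in HL at 10 DAP and 23.0, 23.7, and 23.9 CPM in HL at 5 DAP. H had 256, 78.4, and 190.4 CPM at 10 DAP and 27.4, 25.6, and 26.8 CPM at 5 DAP. The 3 H libraries of 10 DAP were all above the other 9, which lay close together. The difference was -3.0 ± 0.46 on the log2 scale (SE), adjusted p = 0.00454. CesA7 (Cp4.1LG00g03460) had 0.372, 0.647, and 0.841 CPM in HL at 10 DAP and 0.357, 0.675, and 0.457 CPM in HL at 5 DAP. H had 29.1, 4.46, and 7.39 CPM at 10 DAP and 0.238, 0.650, and 0.0938 CPM at 5 DAP. H at 10 DAP did not overlap with the other groups, and the difference was -5.04 ± 1.17 on the log2 scale (SE), adjusted p = 0.0242. The call was lost without HL replicate 1 or 2 of 10 DAP, HL replicate 2 or 3 of 5 DAP, or H replicate 1 or 3 of 5 DAP. CesA8 (Cp4.1LG20g04780) had 0.0744, 0.216, and 0.229 CPM in HL at 10 DAP and 1.53, 1.69, and 1.46 CPM in HL at 5 DAP. H had 42.1, 4.26, and 16.4 CPM at 10 DAP and 2.77, 3.71, and 3.75 CPM at 5 DAP. It rose in H and fell in HL, where it was at or under 3 counts in every library of 10 DAP, and the difference was at least 43.0-fold (adjusted p = 0.0104). Per length, in the authors' FPKM, CesA4 averaged 49.4 in H at 10 DAP, against 3.84 for CesA7 and 6.19 for CesA8. CTL2 (Cp4.1LG03g11750), a chitinase-like protein needed for cellulose assembly in *Arabidopsis*, had 5.88, 6.90, and 5.35 CPM in HL at 10 DAP and 6.27, 7.90, and 7.72 CPM in HL at 5 DAP. H had 559, 81.9, and 264 CPM at 10 DAP and 11.5, 23.5, and 9.66 CPM at 5 DAP. All H libraries of 10 DAP were above the rest, and the difference was -4.61 ± 0.82 on the log2 scale (SE), adjusted p = 0.00839. The COBRA-like gene COBL4 (Cp4.1LG04g14420) was lower by the same test at -4.25, adjusted p = 0.0275. This call was lost without HL replicate 1 or 2 of 10 DAP, any HL library of 5 DAP, or any H library of 5 DAP.

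**Figure D3:**
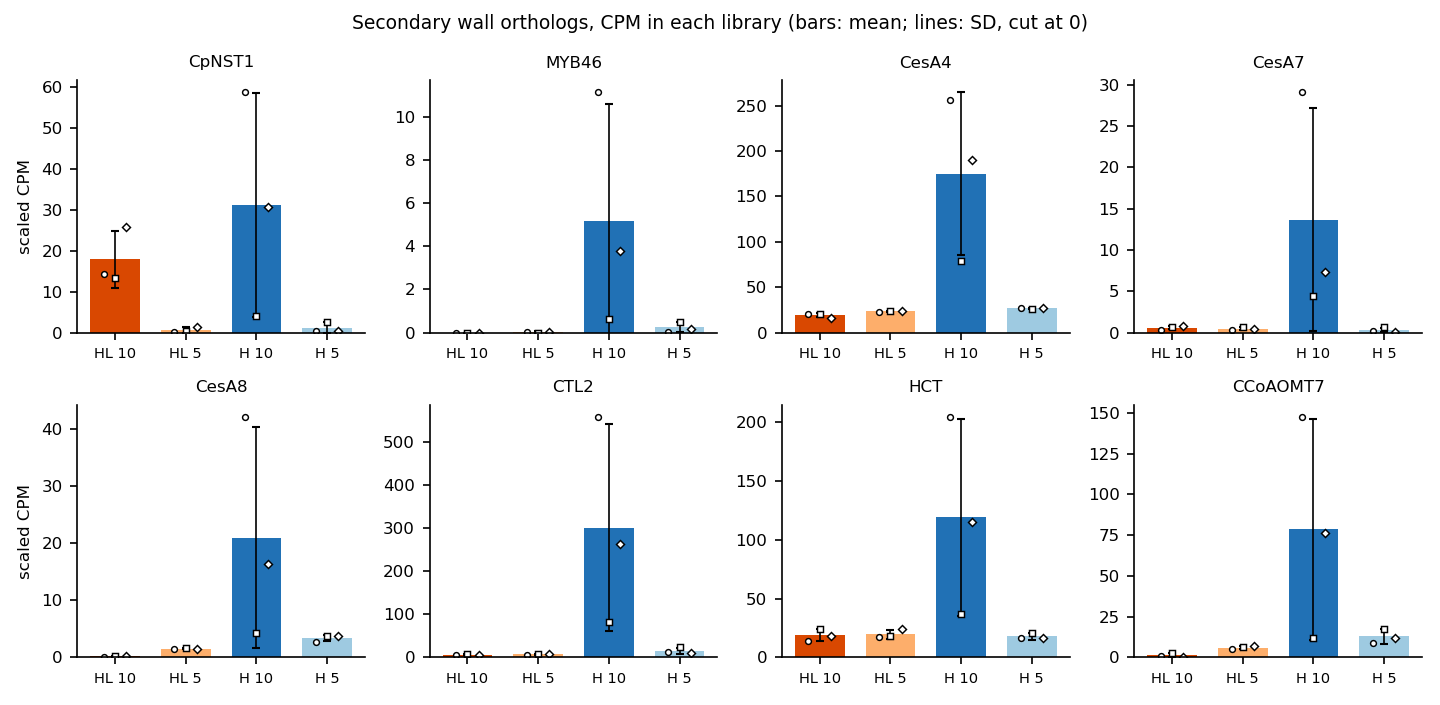
Scaled CPM of 8 secondary wall orthologs in each library (points; circle, square, and diamond for replicates 1, 2, and 3), with group means (bars) and SD (lines, cut at 0). HL at 10 DAP stands left of HL at 5 DAP, H at 10 DAP, and H at 5 DAP. CpNST1 rises in both accessions, while the other 7 genes are highest in H at 10 DAP, from 78.4 to 256 CPM for CesA4, against 16.7 to 20.8 CPM in HL at 10 DAP.

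The called SCW orthologs for xylan were also highest in H at 10 DAP. PARVUS (Cp4.1LG11g01680), which helps start the xylan chain, had 0.0744, 0, and 0 CPM in HL at 10 DAP and 0.816, 0.867, and 0.959 CPM in HL at 5 DAP. H had 52.6, 3.98, and 15.1 CPM at 10 DAP and 1.10, 2.74, and 0.938 CPM at 5 DAP. It was absent from HL at 10 DAP apart from a single count, and the difference was at least 59.4-fold (adjusted p = 0.0114). The xylan synthase IRX9 (Cp4.1LG03g01800) had 0.503 to 1.07 CPM in HL at 10 DAP and 0.816 to 1.40 CPM in HL at 5 DAP. H had 8.65 to 64.2 CPM at 10 DAP and 0.906 to 3.30 CPM at 5 DAP. The difference was -4.72 ± 1.04 on the log2 scale (SE), adjusted p = 0.0195. IRX10 (Cp4.1LG03g13340) and GUX3 (Cp4.1LG01g20960), which add backbone and side chains, had differences of -2.55, adjusted p = 0.0384, and -1.16, adjusted p = 0.0318. The IRX10 call was lost without any HL library of 10 DAP, any HL library of 5 DAP, H replicate 3 of 10 DAP, or any H library of 5 DAP. The GUX3 call was lost without any HL library of 10 DAP, any HL library of 5 DAP, H replicate 1 or 3 of 10 DAP, or H replicate 1 or 3 of 5 DAP. RWA1 (Cp4.1LG19g06250), of the family that acetylates wall polysaccharides, had 5.95 to 9.86 CPM in HL at 10 DAP and 13.8 to 16.1 CPM in HL at 5 DAP. H had 32.1 to 89.2 CPM at 10 DAP and 19.3 to 28.2 CPM at 5 DAP. The difference was -2.19 ± 0.46 on the log2 scale (SE), adjusted p = 0.0159.

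The wider list of xylan synthesis and wall acetylation had calls in both directions. Of 117 genes tested 7 were lower (5.98%) and 6 higher (5.13%), against 3.51% and 3.27% of all genes, and the median difference was -0.20. All 7 lower genes opened, and of the 6 higher genes 5 opened and 1 closed. Among all called genes 503 of 821 lower and 405 of 764 higher ones opened. The higher gene Cp4.1LG01g04100, described as ALTERED XYLOGLUCAN 4 and known in *Arabidopsis* for acetylating xyloglucan rather than xylan, had 5.13 to 6.83 CPM in HL at 10 DAP and 9.20 to 10.5 CPM in HL at 5 DAP. H had 1.79 to 2.97 CPM at 10 DAP and 15.6 to 21.1 CPM at 5 DAP (2.09, adjusted p = 0.00351). A trichome birefringence-like gene (Cp4.1LG17g01310), of a family of wall acetyltransferases, rose in HL only, with 43.9 to 57.1 CPM in HL at 10 DAP and 19 to 24.0 CPM in HL at 5 DAP. H had 20.0 to 26.4 CPM at 10 DAP and 24.9 to 32.6 CPM at 5 DAP (1.53, adjusted p = 0.00444). A lower gene described as GlcAT14A (Cp4.1LG04g03230), of enzymes that act on arabinogalactan proteins, rose in H only, with 16.7 to 22.1 CPM in HL at 10 DAP and 14.6 to 16.3 CPM in HL at 5 DAP. H had 30.1 to 67.6 CPM at 10 DAP and 10.9 to 12.9 CPM at 5 DAP (-1.74, adjusted p = 0.0131). The higher count was 11 without H replicate 1 of 10 DAP and 3 without HL replicate 3 of 10 DAP or without HL replicate 1 or 2 or H replicate 1 of 5 DAP. The lower count was 12 without H replicate 2 of 10 DAP. It was 3 without HL replicate 2 of 10 DAP, HL replicate 2 of 5 DAP, or H replicate 3 of 5 DAP, and 4 without HL replicate 1 or 3 of 10 DAP, HL replicate 3 of 5 DAP, or H replicate 1 of 5 DAP.

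Among monolignol enzymes, 6 of 58 tested were lower (10.3%) and 2 higher (3.45%), against 3.51% and 3.27% of all genes. HCT (Cp4.1LG12g07260) had 14.1, 24.1, and 18.5 CPM in HL at 10 DAP and 17.2, 18.1, and 24.2 CPM in HL at 5 DAP. H had 204, 37.0, and 115 CPM at 10 DAP and 16.3, 21.1, and 16.2 CPM at 5 DAP. The H libraries of 10 DAP lay above all others, and the difference was -2.80 ± 0.67 on the log2 scale (SE), adjusted p = 0.0272. It lost its call without HL replicate 1 or 3 of 10 DAP, HL replicate 2 or 3 of 5 DAP, H replicate 3 of 10 DAP, or H replicate 1 or 3 of 5 DAP. CCoAOMT7 (Cp4.1LG15g04800), a methyltransferase of the pathway, had 1.12, 2.66, and 0.535 CPM in HL at 10 DAP and 5.30, 6.17, and 6.76 CPM in HL at 5 DAP. H had 148, 12.2, and 76.2 CPM at 10 DAP and 8.97, 17.7, and 12.2 CPM at 5 DAP. It rose in H and fell in HL. The difference was -4.67 ± 1.08 on the log2 scale (SE), adjusted p = 0.024, a call lost without HL replicate 1 or 3 of 10 DAP, HL replicate 2 or 3 of 5 DAP, or H replicate 1 or 3 of 5 DAP. The lower count was 1 without H replicate 3 of 5 DAP and 3 without HL replicate 3 of 10 DAP or without HL replicate 2 or 3 of 5 DAP, and the higher count was 8 without H replicate 1 of 10 DAP. C3H1 (Cp4.1LG03g08700), at -1.65, adjusted p = 0.0254, and CSE (Cp4.1LG02g14840), at -1.22, adjusted p = 0.0163, act beside HCT in the pathway and were lower too. C4H (Cp4.1LG05g10140), which acts early in the pathway, had 12.6 to 26.9 CPM in HL at 10 DAP and 76.1 to 94.0 CPM in HL at 5 DAP. H had 25.7 to 111 CPM at 10 DAP and 87.0 to 109 CPM at 5 DAP, and it did not pass (-1.55, adjusted p = 0.132). The cytochrome P450 listed as FSH1 (Cp4.1LG04g01050), at -2.71, adjusted p = 0.324, and the peroxidase PRX72 (Cp4.1LG16g06810), at -1.25, adjusted p = 0.492, did not pass either. A cinnamyl alcohol dehydrogenase (Cp4.1LG01g02490) had 0.0744, 1.08, and 0 CPM in HL at 10 DAP and 2.14, 1.98, and 1.46 CPM in HL at 5 DAP. H had 216, 29.7, and 95.8 CPM at 10 DAP and 9.06, 14, and 10.1 CPM at 5 DAP. It rose in H only, and the difference was -5.58 ± 1.20 on the log2 scale (SE), adjusted p = 0.0177. A second gene of that name (Cp4.1LG00g13080) went the other way, with 138, 169, and 145 CPM in HL at 10 DAP and 1.63, 1.54, and 1.05 CPM in HL at 5 DAP. H had 339, 518, and 538 CPM at 10 DAP and 93.5, 35.0, and 119 CPM at 5 DAP. It rose in both accessions, further in HL, and the gap between accessions narrowed to -1.63 at 10 DAP, against -5.87 at 5 DAP (difference 4.24 ± 0.56 on the log2 scale (SE), adjusted p = 0.00246). Likewise a second gene described as CesA7 (Cp4.1LG18g05840), not in the ortholog list, had 418 to 992 CPM in HL at 10 DAP and 4.06 to 4.53 CPM in HL at 5 DAP. H had 189 to 367 CPM at 10 DAP and 5.81 to 6.96 CPM at 5 DAP. The difference was 1.74 ± 0.46 on the log2 scale (SE), adjusted p = 0.041, and the call was lost without HL replicate 3 of 10 DAP, any HL library of 5 DAP, H replicate 3 of 10 DAP, or any H library of 5 DAP. A dirigent-type gene (Cp4.1LG14g02290), of the family that steers coupling of phenols, had 0.149, 0.144, and 0.0764 CPM in HL at 10 DAP and 0.612, 0.193, and 0.183 CPM in HL at 5 DAP. H had 297, 16.1, and 87.3 CPM at 10 DAP and 0.143, 1.90, and 0.328 CPM at 5 DAP. It was at or under 3 counts in HL at 10 DAP and highest in H at 10 DAP, and its call (adjusted p = 0.0342) was lost without any HL library of 10 DAP, any HL library of 5 DAP, or H replicate 1 or 3 of 5 DAP.

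Among the 16 SCW orthologs called, the only one with a closing gap was RHD3 (Cp4.1LG17g05000), a GTPase that shapes the endoplasmic reticulum. It had 17.3, 18.7, and 23.5 CPM in HL at 10 DAP and 28.9, 27.0, and 29.7 CPM in HL at 5 DAP. H had 28.0, 20.6, and 24.0 CPM at 10 DAP and 7.35, 11, and 8.96 CPM at 5 DAP. H at 5 DAP was below all other libraries. The difference was -1.94 ± 0.25 on the log2 scale (SE), adjusted p = 0.00219. Microtubules guide cellulose deposition, and of 66 tested tubulin and microtubule protein genes 10 were lower (15.2%) and 2 higher (3.03%), against 3.51% and 3.27% of all genes. Of the 10, 8 opened, against 503 of all 821 lower genes. Tubulin alpha-3 (Cp4.1LG15g04300) had 9.82, 6.61, and 8.33 CPM in HL at 10 DAP and 6.07, 6.31, and 6.90 CPM in HL at 5 DAP. H had 37.5, 17.0, and 34.9 CPM at 10 DAP and 4.58, 4.27, and 3.85 CPM at 5 DAP. It rose in H only, and the difference was -2.45 ± 0.38 on the log2 scale (SE), adjusted p = 0.0049. A tubulin beta-6 gene (Cp4.1LG05g03420) fell in HL and did not change past the thresholds in H, with 7.26 to 13.3 CPM in HL at 10 DAP and 26.7 to 31.1 CPM in HL at 5 DAP. H had 30.7 to 38.9 CPM at 10 DAP and 16.9 to 25.7 CPM at 5 DAP (-2.14, adjusted p = 0.0039). The MAP65-8 ortholog (Cp4.1LG11g03750), a microtubule bundler, was lower (-2.57, adjusted p = 0.0349). The exceptions were tubulin-folding cofactor A (Cp4.1LG12g00370), at 2.28, adjusted p = 0.00442, and AIR9 (Cp4.1LG19g05770), at 1.37, adjusted p = 0.0103. The lower count of this list fell to 4 without H replicate 1 of 5 DAP, to 5 without HL replicate 2, HL replicate 3, or H replicate 3 of 5 DAP, and the higher count was 8 without H replicate 1 and 4 without HL replicate 1 of 10 DAP. Tubulin genes are near-identical copies, so how the counting shared reads among them is uncertain.

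**Figure D4:**
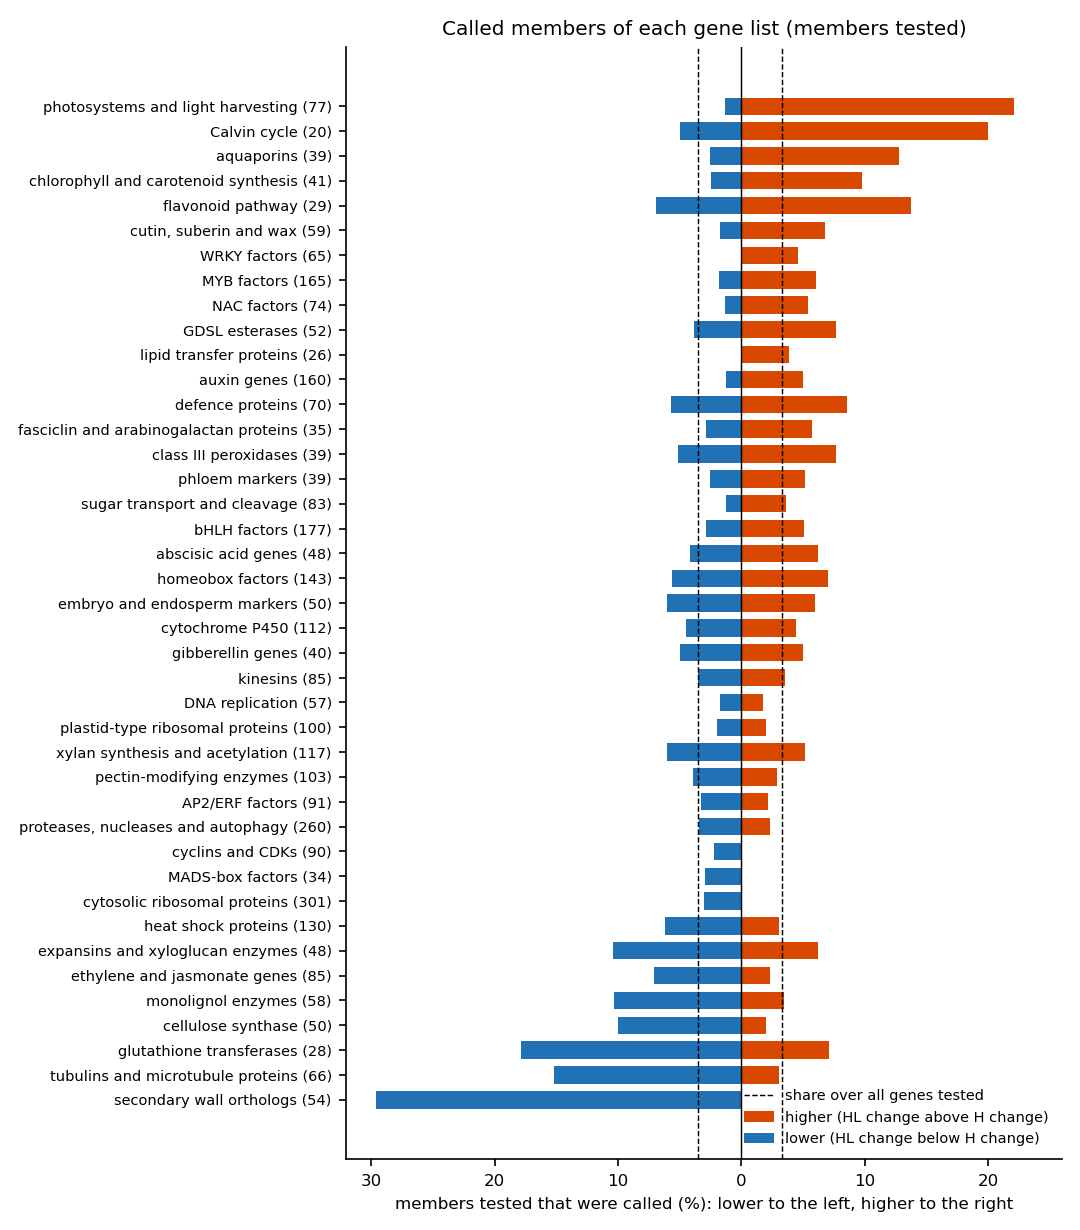
Share of tested members called lower (blue, to the left) and higher (orange, to the right) in each gene list, with the number tested in parentheses. Lists with fewer than 20 members tested, and lists without a call such as core histones, are not drawn. Dashed lines mark 3.51% lower and 3.27% higher, the shares over all genes tested. Secondary wall orthologs reach 29.6% lower, and photosystem and light-harvesting genes 22.1% higher.

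In the opposite direction, photosystem genes were nearly all higher where they were called. Of 77 photosystem and light-harvesting genes tested, 17 (22.1%) were higher, against 3.27% of all genes tested, and 1 was lower, a peptidase gene whose description names photosystem processing (Cp4.1LG19g00870). The list's median difference was 0.86, or 0.77 with 4 members set to their bound, and 83.1% of its members lay above 0. Between 5 and 10 DAP 11 members fell (14.3%) and 12 rose (15.6%) in HL, where 20.5% of all genes fell and 16% rose. In H 30 members fell (39.0%) and 5 rose (6.49%), where 17.3% of all genes fell and 16.3% rose. In 13 of the 17 the gap opened, in 2 it crossed, and 2 passed at neither stage. Of all 764 higher genes 405 opened, 40 crossed, and 166 passed at neither. The list's summed level was 1900 to 3279 CPM in HL and 1372 to 1627 CPM in H at 10 DAP. At 5 DAP it was 1658 to 1961 CPM in HL and 2291 to 2412 CPM in H, so HL already lay below H. The list's median log2 difference of HL over H was 0.57 at 10 DAP and -0.29 at 5 DAP. The higher count was 11 without HL replicate 2 of 5 DAP and 25 without HL replicate 2 of 10 DAP or without H replicate 1 of 10 DAP, and the median stayed between 0.60 and 1.07 whichever library was left out.

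The members came from both photosystems. The photosystem I subunit gene *psaK* (Cp4.1LG10g06250, LG10:433246-435098) had 103, 73.1, and 94.2 CPM in HL at 10 DAP and 45.4, 37.6, and 51.0 CPM in HL at 5 DAP. H had 30.9, 17.6, and 16.3 CPM at 10 DAP and 54.4, 59.5, and 51.7 CPM at 5 DAP. It rose in HL and fell in H, with no overlap at 10 DAP. The difference was 2.36 ± 0.33 on the log2 scale (SE), adjusted p = 0.00343. Photosystem I subunit O (Cp4.1LG00g01700) had 26.4, 16.4, and 45.4 CPM in HL at 10 DAP and 22.4, 17.7, and 30.1 CPM in HL at 5 DAP. H had 15.9, 10.3, and 9.11 CPM at 10 DAP and 57.0, 70.6, and 60.9 CPM at 5 DAP. H lay above HL at 5 DAP and HL above H at 10 DAP, with no overlap at either stage though with little space between the nearest libraries of 10 DAP (difference 2.74 ± 0.50 on the log2 scale (SE), adjusted p = 0.00888). Oxygen-evolving enhancer protein 1 (Cp4.1LG19g11460), which protects the water-splitting centre of photosystem II, had 171, 143, and 203 CPM in HL at 10 DAP and 199, 203, and 243 CPM in HL at 5 DAP. H had 85.6, 69.1, and 67.1 CPM at 10 DAP and 229, 221, and 247 CPM at 5 DAP. It fell in H only. The difference was 1.33 ± 0.22 on the log2 scale (SE), adjusted p = 0.00644. The photosystem II 10 kDa polypeptide gene (Cp4.1LG14g03290) rose in HL only, with 137 to 290.5 CPM in HL at 10 DAP and 58.1 to 68.8 CPM in HL at 5 DAP. H had 47.8 to 73.7 CPM at 10 DAP and 68.1 to 88.5 CPM at 5 DAP (2.01, adjusted p = 0.00847). The antenna protein gene CP29 (Cp4.1LG10g08060) fell in H, with 52.2 to 130.0 CPM in HL at 10 DAP and 116 to 157 CPM in HL at 5 DAP. H had 28.0 to 44.8 CPM at 10 DAP and 223 to 250.0 CPM at 5 DAP (2.08, adjusted p = 0.0135). PSB27-H1 (Cp4.1LG04g03180), a photosystem II assembly factor, crossed, with 3.09 to 10.3 CPM in HL at 10 DAP and 4.49 to 5.78 CPM in HL at 5 DAP. H had 1.80 to 3.16 CPM at 10 DAP and 13.7 to 20.1 CPM at 5 DAP (3.08, adjusted p = 0.00791). The accessions overlapped at 10 DAP.

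**Figure D5:**
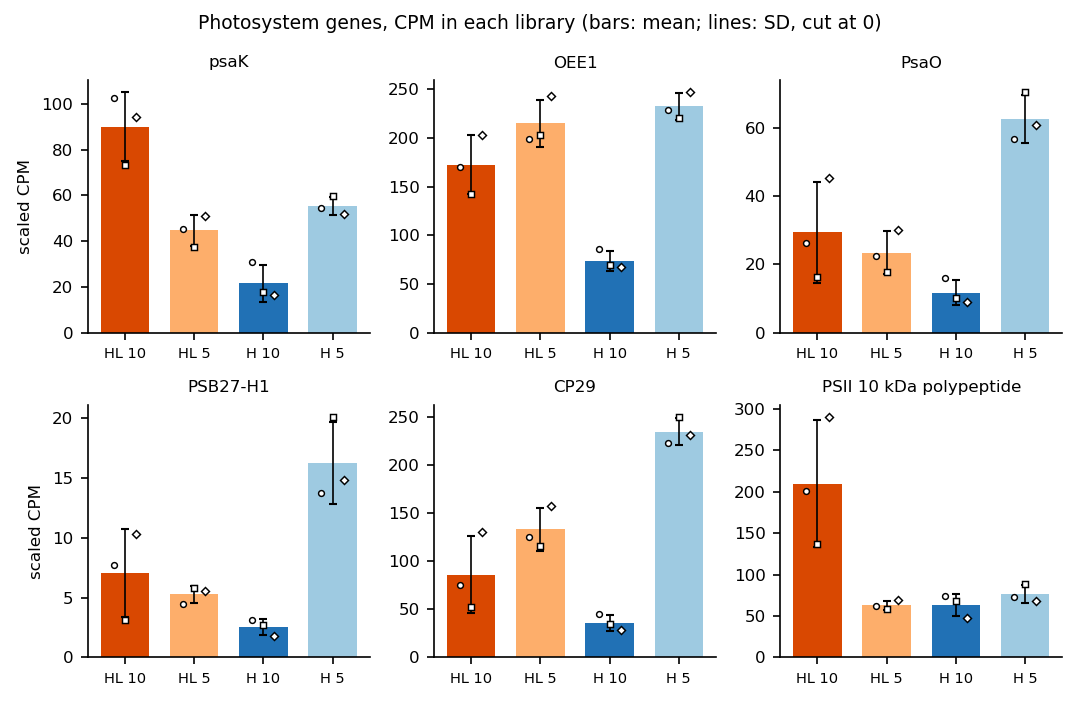
Scaled CPM of 6 photosystem genes in each library (points; circle, square, and diamond for replicates 1, 2, and 3), with group means (bars) and SD (lines). HL at 10 DAP stands left of HL at 5 DAP, H at 10 DAP, and H at 5 DAP. psaK spans 73.1 to 103 CPM in HL at 10 DAP, against 16.3 to 30.9 CPM in H at 10 DAP.

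Some genes of carbon fixation and pigments were higher as well. Of 20 Calvin cycle genes 4 were higher (20.0%) and 1 lower (5.0%), against 3.27% and 3.51% of all genes. The median of 0.23 rested on single libraries, since it was -0.02 without HL replicate 3 and 0.44 without H replicate 1 of 10 DAP. The higher count was 2 without HL replicate 1 or 3 of 5 DAP, H replicate 3 of 10 DAP, or H replicate 1 or 3 of 5 DAP. Sedoheptulose-1,7-bisphosphatase (Cp4.1LG01g11070), which regenerates the CO2 acceptor, had 5.36, 4.89, and 11.5 CPM in HL at 10 DAP and 2.91, 4.24, and 2.65 CPM in HL at 5 DAP. H had 1.5, 0.206, and 0.690 CPM at 10 DAP and 9.11, 16, and 13.2 CPM at 5 DAP. The accessions traded places between the stages without overlap at either. The difference was 5.09 ± 0.76 on the log2 scale (SE), adjusted p = 0.00419. A Rubisco activase gene (Cp4.1LG05g09380) rose in HL only, with 23.9 to 33.1 CPM in HL at 10 DAP and 5.71 to 6.60 CPM in HL at 5 DAP. H had 3.45 to 4.39 CPM at 10 DAP and 2.92 to 3.80 CPM at 5 DAP (1.95, adjusted p = 0.00215). A second gene of that description (Cp4.1LG01g10940) was lower (-2.46, adjusted p = 0.02). A Rubisco small subunit gene (Cp4.1LG01g13630) had 25.8 to 116 CPM in HL at 10 DAP and 31.1 to 37.8 CPM in HL at 5 DAP. H had 3.66 to 5.56 CPM at 10 DAP and 14.2 to 20.7 CPM at 5 DAP (2.81, adjusted p = 0.0207). Of 41 genes of chlorophyll and carotenoid synthesis 4 were higher (9.76%) and 1 lower (2.44%). The higher count was 9 without H replicate 1 of 10 DAP. It was 2 without HL replicate 1 or 3 of 10 DAP, HL replicate 1 or 3 of 5 DAP, or H replicate 2 or 3 of 10 DAP, and 0 without HL replicate 2, H replicate 1, or H replicate 3 of 5 DAP. APRR2 (Cp4.1LG05g02070), a regulator known for pigment accumulation in cucumber and melon fruit, had 198, 130.2, and 300.0 CPM in HL at 10 DAP and 2.14, 2.07, and 2.65 CPM in HL at 5 DAP. H had 19.1, 8.03, and 12.7 CPM at 10 DAP and 4.77, 6.59, and 4.36 CPM at 5 DAP. It rose in both accessions, and far more in HL, where all libraries of 10 DAP stood above 100 CPM (difference 5.17 ± 0.52 on the log2 scale (SE), adjusted p = 0.000754).

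Genes of cytosolic ribosomes had mostly negative differences. Of 301 tested, 9 (2.99%) were lower and 0 higher, close to the 3.51% of all genes. With no fold limit 64 (21.3%) were lower and 0 higher, against 5.04% lower and 4.8% higher of all genes. At an unadjusted p under 0.05 there were 159 lower (52.8%) and 2 higher, against 14.7% and 11.7% of all genes. DESeq2 called 10 of the 301 lower and 0 higher, against 5.42% and 4.99% of all genes. By that count the list did not exceed the lower share of all genes. The median difference was -0.46, and 91.7% of the members lay below 0, against 55.8% of all genes tested. Their summed level was 12952 to 13711 CPM in HL at 10 DAP, 18975 to 21450 CPM in HL at 5 DAP, 17524 to 18397 CPM in H at 10 DAP, and 19311 to 23584 CPM in H at 5 DAP, so that HL at 10 DAP stood below the other groups. The 60S protein gene L32-1 (Cp4.1LG10g05880) had 8.87 to 11.6 CPM in HL at 10 DAP and 40.2 to 43.0 CPM in HL at 5 DAP. H had 21.7 to 26.9 CPM at 10 DAP and 39.6 to 49.3 CPM at 5 DAP. The difference was -1.15 ± 0.19 on the log2 scale (SE), adjusted p = 0.00556. The plastid-type ribosomal genes had a median of 0.09, with 2 of 100 higher and 2 lower, and of 47 core histone genes 0 were called (at an unadjusted p under 0.05 there were 4 higher and 7 lower). The lower count of the cytosolic list was 15 without H replicate 2 of 5 DAP, 5 without HL replicate 3 of 10 DAP or HL replicate 2 or 3 of 5 DAP, and 4 without H replicate 1 or 3 of 5 DAP.

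Of 39 aquaporins, channel proteins for water, 5 were higher (12.8%) and 1 lower (2.56%), against 3.27% and 3.51% of all genes. Of the 5 higher genes 3 closed, 1 opened, and 1 crossed over. Of all 764 higher genes 121 closed, 405 opened, and 40 crossed over. The crossing gene, described as PIP2-7 (Cp4.1LG04g04870), had 4017, 4449, and 6306 CPM in HL at 10 DAP and 1114, 904, and 1053 CPM in HL at 5 DAP. H had 1588, 2430.2, and 2359.6 CPM at 10 DAP and 2505, 2179, and 2814 CPM at 5 DAP. It rose in HL and did not change past the thresholds in H, so that H was above at 5 DAP and HL at 10 DAP with no overlap (difference 2.50 ± 0.35 on the log2 scale (SE), adjusted p = 0.00343). A PIP1-3 gene (Cp4.1LG13g01550) opened and fell in H, with 139 to 192 CPM in HL at 10 DAP and 250.4 to 309 CPM in HL at 5 DAP. H had 56.7 to 76.0 CPM at 10 DAP and 375 to 482 CPM at 5 DAP (1.98, adjusted p = 0.00191). A second PIP2-7 gene (Cp4.1LG15g05890) closed, with 342 to 453 CPM in HL at 10 DAP and 383 to 429 CPM in HL at 5 DAP. H had 509 to 716 CPM at 10 DAP and 1185 to 1450.4 CPM at 5 DAP (1.02, adjusted p = 0.0281). H still lay above HL at 10 DAP without overlap, so this gap narrowed and did not vanish. The higher aquaporin count was 2 without any 1 of the HL libraries of 5 DAP or without H replicate 3 of 5 DAP, 3 without H replicate 2 of 10 DAP or H replicate 1 or 2 of 5 DAP, and 9 without H replicate 1 of 10 DAP.

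Further single genes came from other functions, whose lists had few calls, against 3.27% higher and 3.51% lower of all genes. Of 85 kinesins 3 were higher and 3 lower (3.53% each). Of 103 pectin-modifying enzymes 3 were higher (2.91%) and 4 lower (3.88%). Of 90 cyclins and CDKs 0 were higher and 2 lower (2.22%), and of 39 phloem genes 2 were higher (5.13%) and 1 lower (2.56%). A kinesin of the KIN-UC type (Cp4.1LG13g10480) had 77.1, 64.0, and 94.7 CPM in HL at 10 DAP and 10.6, 7.37, and 7.44 CPM in HL at 5 DAP. H had 31.8, 22.0, and 26.8 CPM at 10 DAP and 32.0, 45.3, and 36.4 CPM at 5 DAP. It crossed over, since HL was above at 10 DAP and H at 5 DAP without overlap, and the difference was 3.71 ± 0.31 on the log2 scale (SE), adjusted p = 0.000368. A pectin acetylesterase gene (Cp4.1LG01g01410), which removes acetyl groups from pectin, crossed with 37.3 to 46.3 CPM in HL at 10 DAP and 0.365 to 1.07 CPM in HL at 5 DAP. H had 17.3 to 22.7 CPM at 10 DAP and 3.02 to 4.20 CPM at 5 DAP (3.21, adjusted p = 0.00197). Cyclin D3-3 (Cp4.1LG02g06870), which drives entry into the cell cycle, fell in both accessions and further in HL, with 0.229 to 0.521 CPM in HL at 10 DAP and 22.8 to 32.3 CPM in HL at 5 DAP. H had 1.34 to 1.80 CPM at 10 DAP and 11.7 to 14.6 CPM at 5 DAP (-2.94, adjusted p = 0.00192). The sieve element occlusion gene SEOB (Cp4.1LG07g00200), a phloem gene, rose in both and further in HL, with 84.1 to 111 CPM in HL at 10 DAP and 1.64 to 1.88 CPM in HL at 5 DAP. H had 11.7 to 15.2 CPM at 10 DAP and 0.750 to 1.19 CPM at 5 DAP (2.10, adjusted p = 0.00215). The summed level of the phloem list was 1116 to 1300 CPM in HL and 951 to 1315 CPM in H at 10 DAP.

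Hormone genes included several whose gap closed. Of 48 abscisic acid genes 3 were higher (6.25%) and 2 lower (4.17%), against 3.27% and 3.51% of all genes. Of 40 gibberellin genes 2 were higher and 2 lower (5.0% each). Their median difference was -1.34, or -1.11 with 9 members set to their bound or to 0, against -0.09 over all genes. It was -0.52 without H replicate 1 of 10 DAP. At an unadjusted p under 0.05, 10 gibberellin genes were lower (25%) and 4 higher (10%), against 14.7% and 11.7% of all genes. Of 85 ethylene and jasmonate genes 6 were lower (7.06%) and 2 higher (2.35%), against 3.51% and 3.27% of all genes, and 4 of the 6 closed. Of all 821 lower genes 107 closed. Jasmonate O-methyltransferase (Cp4.1LG02g07580), which methylates jasmonic acid, had 17.3, 4.74, and 13.3 CPM in HL at 10 DAP and 2.91, 4.1, and 5.25 CPM in HL at 5 DAP. H had 3.58, 3.43, and 6.08 CPM at 10 DAP and 0, 0, and 0 CPM at 5 DAP. It was at 0 counts in every H library of 5 DAP, while the accessions overlapped at 10 DAP, and the difference was at least 10.7-fold (adjusted p = 0.00832). ACC oxidase 3 (Cp4.1LG10g09730), of the family that makes ethylene, fell in HL and rose in H, with 0.153 to 0.521 CPM in HL at 10 DAP and 2.41 to 3.52 CPM in HL at 5 DAP. H had 0.749 to 2.13 CPM at 10 DAP and 0 to 0.0938 CPM at 5 DAP. The difference was at least 67.5-fold (adjusted p = 0.00259). The ethylene receptor gene ETR1 (Cp4.1LG07g07800) fell in HL only, with 18.7 to 20.3 CPM in HL at 10 DAP and 76.3 to 89.4 CPM in HL at 5 DAP. H had 18.2 to 26.5 CPM at 10 DAP and 27.1 to 36.6 CPM at 5 DAP. The accessions overlapped at 10 DAP (-1.49, adjusted p = 0.00485). The higher count was 1 without HL replicate 3 of 10 DAP, any HL library of 5 DAP, or H replicate 1 of 5 DAP. TIR1 (Cp4.1LG19g07520), 1 of the 2 higher genes, is by function an auxin receptor. It fell in H only, with 83.1 to 102 CPM in HL at 10 DAP and 50.4 to 75.5 CPM in HL at 5 DAP. H had 36.8 to 43.8 CPM at 10 DAP and 78.5 to 88.2 CPM at 5 DAP (1.66, adjusted p = 0.00263). Of 160 auxin genes 8 were higher (5.0%) and 2 lower (1.25%), against 3.27% and 3.51% of all genes, with 14 higher without H replicate 1 of 10 DAP and 5 without HL replicate 1 or 2 or H replicate 3 of 5 DAP, and 6 lower without H replicate 1 or 2 of 10 DAP and 0 without any HL library of 5 DAP or H replicate 3 of 5 DAP. The auxin transporter-like gene Cp4.1LG13g04840 crossed over (4.20, adjusted p = 0.00219). The abscisic acid receptor gene PYL1 (Cp4.1LG05g00020) rose in HL only and closed its gap, with 9.6 to 16.7 CPM in HL at 10 DAP and 0.731 to 1.33 CPM in HL at 5 DAP. H had 13.3 to 27.2 CPM at 10 DAP and 5.52 to 14.5 CPM at 5 DAP (2.81, adjusted p = 0.0152). Gibberellin 20-oxidase 1-B (Cp4.1LG10g03620), of the last steps of gibberellin synthesis, crossed with 0.688 to 1.12 CPM in HL at 10 DAP and 2.65 to 2.97 CPM in HL at 5 DAP. H had 1.66 to 2.19 CPM at 10 DAP and 0.928 to 1.29 CPM at 5 DAP (-2.45, adjusted p = 0.00431).

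Other closing genes were regulators and stress proteins. Of 177 basic helix-loop-helix genes 9 were higher (5.08%) and 5 lower (2.82%), against 3.27% and 3.51% of all genes. The basic helix-loop-helix gene bHLH51 (Cp4.1LG13g07410) rose in H only and met the HL level, with 33.6 to 69.4 CPM in HL at 10 DAP and 31.7 to 40.2 CPM in HL at 5 DAP. H had 52.1 to 66.8 CPM at 10 DAP and 5.75 to 10.2 CPM at 5 DAP (-2.40, adjusted p = 0.00561). A SPATULA gene (Cp4.1LG19g11100), known for carpel growth in *Arabidopsis*, fell in both and further in HL, with 0.893 to 1.45 CPM in HL at 10 DAP and 42.8 to 49.97 CPM in HL at 5 DAP. H had 0.961 to 2.21 CPM at 10 DAP and 9.98 to 15.1 CPM at 5 DAP (-2.52, adjusted p = 0.00535). A small heat shock protein gene of class IV (Cp4.1LG02g09750) rose in both and further in H, with 88.4 to 107 CPM in HL at 10 DAP and 14.3 to 18.4 CPM in HL at 5 DAP. H had 41.5 to 55.6 CPM at 10 DAP and 1.38 to 1.64 CPM at 5 DAP (-2.42, adjusted p = 0.000368). HL still lay above H at 10 DAP without overlap, so this gap narrowed and did not vanish. Of 130 heat shock genes tested 8 were lower (6.15%) and 4 higher (3.08%), against 3.51% and 3.27% of all genes. The lower count was 13 without H replicate 1 of 10 DAP, 5 without HL replicate 2 or 3 of 5 DAP, and 4 without H replicate 3 of 5 DAP. The count of higher genes was 1 without HL replicate 2 or H replicate 3 of 5 DAP and 2 without HL replicate 2 of 10 DAP or H replicate 2 of 5 DAP. The summed level of the list was 13281 to 18430 CPM in HL at 10 DAP and 3425 to 3922 CPM in HL at 5 DAP. H had 8092 to 15737 CPM at 10 DAP and 3047 to 3276 CPM at 5 DAP.

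Some of the largest differences belonged to genes outside these pathways. A type I ribosome-inactivating protein gene (Cp4.1LG17g10070), of a class of defence proteins well known from cucurbits, had 69.8, 74.5, and 211 CPM in HL at 10 DAP and 5.46, 6.75, and 7.26 CPM in HL at 5 DAP. H had 0.375, 0, and 0 CPM at 10 DAP and 0.859, 2.55, and 0.516 CPM at 5 DAP. It rose in HL and fell in H, where it was near 0 at 10 DAP. The difference was 7.32 ± 1.17 on the log2 scale (SE), adjusted p = 0.00535. A sulfate transporter gene (Cp4.1LG03g10430) had 57.3, 69.6, and 94.2 CPM in HL at 10 DAP and 5.86, 4.58, and 4.16 CPM in HL at 5 DAP. H had 1.82, 0.343, and 1.38 CPM at 10 DAP and 4.34, 2.74, and 3.89 CPM at 5 DAP. It rose in HL and fell in H, with no overlap at 10 DAP, and the difference was 5.52 ± 0.57 on the log2 scale (SE), adjusted p = 0.00086. The glutathione transferase gene U8 (Cp4.1LG10g08160), of a family of detoxifying enzymes, crossed with 34.2, 23.1, and 73.8 CPM in HL at 10 DAP and 0.561, 0.434, and 0.502 CPM in HL at 5 DAP. H had 2.84, 1.17, and 3.18 CPM at 10 DAP and 3.43, 2.18, and 4.13 CPM at 5 DAP. The accessions did not overlap at either stage, and the difference was 6.87 ± 0.72 on the log2 scale (SE), adjusted p = 0.000942. The family mostly went the other way where it was called. Of 28 glutathione transferase genes tested 5 were lower (17.9%) and 2 higher (7.14%), against 3.51% and 3.27% of all genes. The lower count was 4 to 6 with a library left out. The bHLH gene described as ABORTED MICROSPORES (Cp4.1LG15g05920), a pollen regulator in *Arabidopsis*, had 8.55 to 29.9 CPM in HL at 10 DAP and 0.530 to 1.19 CPM in HL at 5 DAP. H had 2.82 to 6.97 CPM at 10 DAP and 6.30 to 8.11 CPM at 5 DAP (4.96, adjusted p = 0.00351). On the lower side, a gene described as an isoflavone reductase-like protein (Cp4.1LG07g04070) had 0, 0, and 0.0764 CPM in HL at 10 DAP and 0.306, 0.867, and 0.548 CPM in HL at 5 DAP. H had 69.7, 11.9, and 36.4 CPM at 10 DAP and 0.572, 1.72, and 0.657 CPM at 5 DAP. HL at 10 DAP was at or under 3 counts in every library, and the difference was at least 103-fold (adjusted p = 0.0042). A gene described as DNA-3-methyladenine glycosylase 1 (Cp4.1LG01g13260), a DNA repair enzyme, was seen above 1 CPM only in H at 10 DAP. It had 40.6, 6.45, and 12.6 CPM there, against at most 0.153 CPM in HL at 10 DAP. The accession difference in its change, which includes the levels at 5 DAP, was at least 207-fold (adjusted p = 0.0037). The subtilisin-like protease gene SBT2.2 (Cp4.1LG19g05550) fell in HL and rose in H, with 0.595, 0.719, and 0.612 CPM in HL at 10 DAP and 5.40, 6.02, and 4.89 CPM in HL at 5 DAP. H had 18.1, 11.9, and 19.1 CPM at 10 DAP and 4.58, 5.66, and 4.13 CPM at 5 DAP. The accessions stood far apart at 10 DAP only, and the difference was -4.84 ± 0.33 on the log2 scale (SE), adjusted p = 0.000368.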

How the data were processed

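Per the labels, total RNA of whole seed coats was sequenced for 3 biological replicates per group. The authors aligned the reads to the Cp4.1 zucchini genome and deposited whole-number read counts and FPKM for 29484 features, of which 27868 are annotated genes. The deposited FPKM are fragments scaled by transcript length and library size, and were used only to compare levels between genes. The tool that assigned reads to genes is not given in the sources used here, so reads of near-identical copies, common in this duplicated genome, may be shared between them. Columns with the authors' own fold changes and p-values were not used, and 0 per-sample columns were left out. From the counts of the 12 libraries, edgeR 4.0.16 in R 4.3.3 (filterByExpr, TMM scaling, 1 term per group, glmQLFTest) tested the difference of the 2 changes. A call needed a Benjamini-Hochberg adjusted p of 0.05 or less and a log2 fold change of 1 or more in size, the thresholds of the study. CPM were scaled by TMM. Of each group at or under 3 counts in every library a fold is given as a bound, from 3 counts per library. The range of 3 counts was 0.137 to 0.229 CPM, and covers counting error only. DESeq2 1.42.0 and limma 3.58.1 (voom with sample weights), other scalings and filters, all 18 libraries, a replicate block, and each library left out were tried as alternatives, and the fits of 6 libraries per stage were added after seeing the data. The script was tested on simulated data.

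The genes named were the 10 highest and 10 lowest with a description, a mean count of at least 50, and a call whichever library was left out, up to 3 per direction by adjusted p in each list with 2 or more calls, and the main SCW orthologs. Other genes named were chosen after their values were seen. The gene lists, drawn from the study's orthologs and from words in the deposited gene descriptions, and the comparison itself were chosen with earlier results of these data known.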

Additional observations from a re-analysis of the deposited data

Results flagged for a closer look

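The change from 5 to 10 DAP differed between HL and H, by a test of the difference itself (edgeR quasi-likelihood test, 3 libraries per group), in 1585 genes, and the values below are those of the genes picked by the naming rule. On the higher side the difference was 7.32 for the ribosome-inactivating protein gene, 6.87 for glutathione transferase U8, 5.52 for the sulfate transporter, 5.17 for APRR2, 5.09 for sedoheptulose-1,7-bisphosphatase, and 4.96 for the ABORTED MICROSPORES gene. A GDSL esterase gene (Cp4.1LG07g08190) had a difference of 5.76, with 4.39 to 14.4 CPM in HL at 10 DAP and 6.44 to 9.88 CPM in HL at 5 DAP. H had 0 to 0.483 CPM at 10 DAP and 2.74 to 12.4 CPM at 5 DAP. A gene with a helix-loop-helix domain (Cp4.1LG09g08320) had a difference of 5.03, with 0.575 to 1.68 CPM in HL at 10 DAP and 1.45 to 1.78 CPM in HL at 5 DAP. H had 0 to 0.535 CPM at 10 DAP and 12.4 to 16.2 CPM at 5 DAP. In the UPF0481 protein gene Cp4.1LG11g03370 (7.05) and the SOUL heme-binding domain gene Cp4.1LG04g09410 (6.16) every H library of 10 DAP was at or under 3 counts, so these fitted values are no bound, and the differences were at least 63.1-fold and 41.6-fold.

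On the lower side a gene with a DUF547 domain (Cp4.1LG10g02560) had a difference of -5.30, with 5.58 to 12.2 CPM in HL at 10 DAP and 12.2 to 17.2 CPM in HL at 5 DAP. H had 6.90 to 15.3 CPM at 10 DAP and 0.334 to 0.696 CPM at 5 DAP. The TIC 32 dehydrogenase gene (Cp4.1LG03g02350) had a difference of -7.44, with 0 to 0.535 CPM in HL at 10 DAP and 7.32 to 8.87 CPM in HL at 5 DAP. H had 0 to 3.45 CPM at 10 DAP and 0.464 to 0.516 CPM at 5 DAP. Among SCW orthologs it was -3.0 for CesA4, -5.04 for CesA7, -2.80 for HCT, and -4.67 for CCoAOMT7. The fitted values were no bound, because a group was at or under 3 counts in every library, for the DNA-3-methyladenine glycosylase gene (-9.89), the isoflavone reductase-like gene (-9.51), PARVUS (-8.71), jasmonate O-methyltransferase (-7.76), and CesA8 (-5.74). The same held for a late embryogenesis abundant gene (Cp4.1LG12g08710, -7.25, at least 157-fold), a gene with a DUF1666 domain (Cp4.1LG09g01840, -6.72, at least 61.0-fold), and the protease gene SBT1.1 (Cp4.1LG01g06340, -5.27, at least 39.5-fold).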

How the results depend on the processing

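The tool and single libraries moved the number of calls most. DESeq2 called 2435 genes (1167 higher and 1268 lower) and limma voom with sample weights 3354 (1571 higher and 1783 lower), against 1585 (764 and 821) by edgeR. Leaving out 1 library at a time, the total ranged from 936 to 2648, the higher count from 461 to 1441, and the lower count from 433 to 1207. Without H replicate 1 of 10 DAP 1442 genes opened and 381 closed. Scaling by RLE gave 1608 calls, upper-quartile scaling 1484, a filter of 10 counts in every library 1275, and all 18 libraries 1828. RLE moved the median of all genes by 0.04 and upper-quartile scaling by -0.04. Without a fold-change limit 2301 genes passed.

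The sign reversed for CpNST1 (Cp4.1LG12g04350), which ranged from -1.65 to 1.04 with a library left out, for NST2 (Cp4.1LG05g07660), from -0.12 to 1.73, and for FSH1 (Cp4.1LG04g01050), at 0.95 with limma voom and from -3.28 to 1.75 with a library left out. Of the 203 named genes, DESeq2 lost the call of 1, limma voom of 11, RLE of 3, and upper-quartile scaling of 13, while leaving out a library lost 4 to 57.

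The replicate numbers did not pair the samples. Same-numbered libraries of different groups had correlations of their deviations from -0.47 to 0.27, with 4 of 18 over 0.1. Between differently numbered libraries they ranged from -0.44 to 0.52, highest for HL replicate 3 of 5 DAP with H replicate 1 of 10 DAP. H replicate 2 of 5 DAP had 0.48 with each of these 2 libraries. In 1 of 12 libraries the mean correlation was higher with libraries of its own number than with those of other numbers. A replicate block lowered the count to 1132 (584 higher and 548 lower), lost the call of 35 named genes, and gave CpNST1 (Cp4.1LG12g04350) a value of 0.0302.

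Depth set a floor of 3 counts, 0.137 to 0.229 CPM per library, under which MYB46 and MYB58 stayed in HL at both stages, so their change there was not measurable. Calls were often lost when 1 of the 3 libraries of a group was left out. Of the named genes, 57 lost their call without H replicate 3 of 5 DAP and 4 without H replicate 1 of 10 DAP.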

Other observations

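Of 143 homeobox genes 10 were higher (6.99%) and 8 lower (5.59%), against 3.27% and 3.51% of all genes. HDG12 (Cp4.1LG20g00460), a homeobox factor of the family that marks epidermal cells in *Arabidopsis*, had 78.4, 112, and 85.4 CPM in HL at 10 DAP and 68.2, 47.1, and 53.4 CPM in HL at 5 DAP. H had 22.3, 14.4, and 17.1 CPM at 10 DAP and 45.6, 57.5, and 56.0 CPM at 5 DAP. The accessions did not overlap at 10 DAP, and the difference was 2.28 ± 0.29 on the log2 scale (SE), adjusted p = 0.00219 by the edgeR quasi-likelihood test. ANTHOCYANINLESS 2 (Cp4.1LG17g03490), of the same family, had 47.7 to 68.3 CPM in HL at 10 DAP and 46.4 to 53.7 CPM in HL at 5 DAP. H had 21.5 to 29.9 CPM at 10 DAP and 58.3 to 64.4 CPM at 5 DAP (1.5, adjusted p = 0.00361). HDG11 (Cp4.1LG03g05610), also of this family, was lower, with 7.41 to 9.82 CPM in HL at 10 DAP and 26.2 to 36.3 CPM in HL at 5 DAP. H had 13.0 to 15.9 CPM at 10 DAP and 22.1 to 26.9 CPM at 5 DAP (-1.16, adjusted p = 0.0115). HAT22 (Cp4.1LG01g09020), of another homeobox family, rose in H only, with 16.1 to 34.8 CPM in HL at 10 DAP and 15.6 to 24.0 CPM in HL at 5 DAP. H had 103 to 242 CPM at 10 DAP and 23.1 to 33.2 CPM at 5 DAP (-2.47, adjusted p = 0.0141). Without HL replicate 2 of 5 DAP 6 homeobox genes were higher and 5 lower, and without H replicate 3 of 5 DAP 7 were higher and 3 lower. The ketoacyl-CoA synthase gene KCS11 (Cp4.1LG04g09460), of the family that lengthens fatty acids for waxes, had 54.7, 48.2, and 62.9 CPM in HL at 10 DAP and 26.5, 36.1, and 35.4 CPM in HL at 5 DAP. H had 7.54, 2.61, and 3.25 CPM at 10 DAP and 24.4, 28.5, and 32.7 CPM at 5 DAP. The difference was 3.42 ± 0.46 on the log2 scale (SE), adjusted p = 0.00285. Of 59 genes of cutin, suberin, and wax 4 were higher (6.78%) and 1 lower (1.69%), and the higher count was 2 without HL replicate 2 or 3 of 10 DAP or without any library of 5 DAP.

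Of 48 genes of expansins and xyloglucan enzymes 3 were higher (6.25%) and 5 lower (10.4%), against 3.27% and 3.51% of all genes. The lower count was 1 without HL replicate 2 or H replicate 3 of 5 DAP, 2 without HL replicate 1 or 3 of 10 DAP, HL replicate 3 of 5 DAP, or H replicate 1 of 5 DAP, and 3 without HL replicate 1 of 5 DAP, H replicate 3 of 10 DAP, or H replicate 2 of 5 DAP. The higher count was 5 without H replicate 1 of 10 DAP. The higher genes XTH9 (Cp4.1LG15g07730), which remodels xyloglucan in growing walls, and expansin A6 (Cp4.1LG20g08380), which loosens walls, were lowest in H at 10 DAP. XTH9 had 43.9 to 60.4 CPM in HL at 10 DAP and 100.1 to 116 CPM in HL at 5 DAP. H had 17.8 to 20.2 CPM at 10 DAP and 123 to 131 CPM at 5 DAP (1.73, adjusted p = 0.00103). Expansin A6 had 9.52 to 14.2 CPM in HL at 10 DAP and 50.5 to 64.5 CPM in HL at 5 DAP. H had 4.60 to 6.42 CPM at 10 DAP and 86.1 to 103 CPM at 5 DAP (1.80, adjusted p = 0.00329). The lower gene XTH30 (Cp4.1LG05g00440) fell in HL only, with 0.287 to 1.64 CPM in HL at 10 DAP and 8.31 to 14.4 CPM in HL at 5 DAP. H had 4.7 to 6.90 CPM at 10 DAP and 3.16 to 6.14 CPM at 5 DAP (-3.84, adjusted p = 0.00702). CYP90A1 (Cp4.1LG01g05340), an enzyme of brassinosteroid synthesis, fell in both and further in H, with 3.31 to 4.36 CPM in HL at 10 DAP and 15 to 17.0 CPM in HL at 5 DAP. H had 0.481 to 1.07 CPM at 10 DAP and 21.0 to 24.5 CPM at 5 DAP (2.72, adjusted p = 0.0014). An acidic endochitinase gene (Cp4.1LG00g14490) rose in HL only, with 30.8, 20.1, and 25.5 CPM in HL at 10 DAP and 1.33, 0.530, and 1.00 CPM in HL at 5 DAP. H had 0.535, 0.0687, and 0.138 CPM at 10 DAP and 0.143, 0.278, and 0.328 CPM at 5 DAP (4.66, adjusted p = 0.00792). The gene described as MYB29 (Cp4.1LG14g01290) crossed over, with 2.90, 4.46, and 6.57 CPM in HL at 10 DAP and 0.612, 0.337, and 0.639 CPM in HL at 5 DAP. H had 0.107, 0, and 0 CPM at 10 DAP and 4.34, 7.01, and 4.08 CPM at 5 DAP. H at 10 DAP was at or under 3 counts in every library, and the difference was at least 239-fold (adjusted p = 0.000368).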
